A study of Mus musculus with 6 samples.

Results

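The genes described here encode proteins of synaptic vesicles and the machinery that docks and fuses them. They also include the SNARE proteins and SNARE-handling factors that most cells use for their own membrane traffic. The list holds 40 genes chosen by symbol, out of 21878 gene symbols in the deposited table, and 39 of them had a row (Vamp7 had none). By what is known of where they are used, 23 were taken as neuron-specific, 14 as broadly expressed and 3 (Syt7, Syt11 and Unc13b) as intermediate. RNA was measured in HT22 cells, an immortalized line derived from mouse hippocampal neurons, with 3 control libraries and 3 libraries from cells given 120 µM aluminum maltolate for 24 h (Al group), each group being described as biological triplicates. The control medium was either plain or held maltol alone, and which one was sequenced is not given in the sources used here. All 6 are input libraries of an m6A immunoprecipitation experiment, so they hold fragmented RNA that was not enriched, and the comparison asks how Al exposure altered the transcripts of these genes.

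Neurotransmitter release depends on a vesicle SNARE of the VAMP family that zippers with a syntaxin and a SNAP protein on the target membrane. Synaptotagmins sense calcium, complexins clamp and assist the assembled complex, UNC13 and RIM proteins prime vesicles at the active zone, and NSF with its SNAP adaptors takes spent complexes apart. Several neuronal components have a relative that serves constitutive traffic in other cells, such as SNAP-23 for SNAP-25 or cellubrevin (Vamp3) for synaptobrevin (Vamp2).

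HT22 cells carried little RNA for several of the genes that define a mature presynaptic terminal. Of a list of 13 neuron markers, 9 had a mean below 0.1 FPKM (fragments counted per unit of gene length and of library size), including Rbfox3, Map2 and Dcx, and Nefm had 0 reads in all 6 libraries. Only Tubb3, Eno2 and Ncam1 exceeded 1 FPKM. The summed neuron markers came to 24.3 to 25.4 FPKM in the control group and 24.4 to 27.5 FPKM in the Al group, with 0 of 13 called lower and 1 called higher. Fibroblast markers, by contrast, summed to 2437 to 3972 FPKM in the control group and 2916 to 4105 FPKM in the Al group, mostly from collagen genes, and 3 of those 6 were called lower and 1 higher. Astrocyte markers summed to between 32.3 and 42.3 FPKM over all libraries, with 1 of 5 called lower and 1 higher, and Aqp4 at 0. Neural progenitor markers summed to 1124 to 1188 FPKM in control cells and 952 to 1138 FPKM after Al, almost wholly from Vim, with 0 of 5 called and Sox2 at 0. The oligodendrocyte, microglia and endothelium lists summed to at most 1.49 FPKM in any library, with 1 gene called higher in each and 0 lower. Markers with a mean below 0.1 FPKM were not tested and could not be called. They numbered 9 in the neuron list, 2 astrocyte, 4 progenitor, 4 oligodendrocyte, 3 microglia and 3 endothelium. Over all tested genes, 24.4% were called lower and 26.2% higher. The marker sums above are of deposited FPKM. Divided by the size factors that the calls use, the neuron list summed to 20.1 to 21.7 in controls and 28.7 to 33.8 with Al, the fibroblast list to 2075 to 3352 and 3580 to 5116, and the progenitor list to 957 to 1003 and 1021 to 1410. On that scale the Al libraries lay above the controls for every list other than microglia. The higher neuron sum lay mostly in Ncam1, with scaled means of 13.9 in controls and 24.3 with Al, and does not describe the other neuron markers. Tubb3 and Eno2, also above 1 FPKM, had log2 fold changes of -0.19 and -0.38, and the scarcer Elavl3 had 0.53, none of them called. The part of the listed markers in the differences below was not tested.

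The libraries held 37902258 to 44374041 reads on genes in the control group and 21047131 to 26572483 in the Al group, recovered from the steps of the FPKM values. Each library was divided by a size factor, between 0.802 and 1.21, before groups were compared on log2 values. A gene was called when limma gave an unadjusted P below 0.05 and a log2 fold change over 0.58 in size, over 12889 genes with a mean of at least 0.1 FPKM. A library with 0 reads for a gene could have had an expected count as high as 3, counting error alone considered.

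The promoters of 3 members are shown because their genes moved furthest among the neuron-specific members: Syn1 and Cplx2 fell after Al, and Sv2a rose. Each window runs from 250 bases before to 50 bases after a RefSeq start site (GRCm38.p6), is written 5′ to 3′ on the strand of the gene, and was found by gene symbol, as were windows for 29 of the 40 members. Capitals mark matches, on either strand, to TTCAGCACC (the left part of RE1, the element bound by the neuronal repressor REST), TGACGTCA (the cAMP response element) and GGGCGG (the GC box bound by Sp1). The cAMP response element reads the same on both strands.
Syn1, chrX:20920869-20921168, minus strand: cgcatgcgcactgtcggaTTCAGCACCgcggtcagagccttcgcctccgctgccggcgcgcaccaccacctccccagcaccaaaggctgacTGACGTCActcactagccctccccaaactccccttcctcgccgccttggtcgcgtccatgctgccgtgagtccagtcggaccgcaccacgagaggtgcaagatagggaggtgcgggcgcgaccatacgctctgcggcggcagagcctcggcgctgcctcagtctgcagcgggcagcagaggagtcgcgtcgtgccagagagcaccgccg
Cplx2, chr13:54302306-54302605, plus strand: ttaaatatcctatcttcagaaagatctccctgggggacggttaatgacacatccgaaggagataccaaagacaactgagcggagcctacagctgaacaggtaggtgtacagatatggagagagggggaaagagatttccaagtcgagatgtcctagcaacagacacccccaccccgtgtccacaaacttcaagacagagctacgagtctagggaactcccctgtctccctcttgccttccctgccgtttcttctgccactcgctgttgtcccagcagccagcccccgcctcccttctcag
Sv2a, chr3:96180977-96181276, plus strand: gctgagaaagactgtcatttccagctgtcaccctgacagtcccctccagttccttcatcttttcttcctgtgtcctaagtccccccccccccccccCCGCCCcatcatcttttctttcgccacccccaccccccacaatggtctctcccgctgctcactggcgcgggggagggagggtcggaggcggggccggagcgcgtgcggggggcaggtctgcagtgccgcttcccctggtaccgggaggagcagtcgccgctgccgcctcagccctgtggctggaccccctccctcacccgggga
In the Syn1 window the RE1 part begins 232 bases and the cAMP response element 159 bases before the start site. The Sv2a window has a single GC box, 154 bases before the start on the other strand, and the Cplx2 window, at a start site inside the annotated gene, has none of the 3 motifs. Among 32851 windows of the same length in the mouse table, 0.371% hold the RE1 part, 1.79% the cAMP response element and 35.7% the GC box. Of the 37 member windows, 2 hold the RE1 part (Syn1 and Unc13a), 2 the cAMP response element (Syn1 and Napa) and 22 the GC box. Median GC content was 63.7% for 16 neuron-specific genes, 65.7% for 11 broad genes and 52.7% over all windows, so both classes of member have GC-rich starts. A match is a description of the letters and says nothing about binding in these cells.

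The classes differed first in level. Of the 23 neuron-specific members, 7 had a mean of at least 1 FPKM, against 12 of the 13 broad members in the table. Summed over the class, the neuron-specific genes came to 50.9, 51.5 and 45.2 FPKM in control replicates 1, 2 and 3 and to 29.4, 31.0 and 39.2 FPKM in the Al replicates. The broad genes summed to 234, 247 and 259 FPKM in the control group and to 170, 178 and 170 FPKM in the Al group. After scaling by size factor the sums lay close together, at 41.4 ± 2.49 and 38.9 ± 2.83 for the neuron-specific genes and at 208 ± 11.6 and 204 ± 19.1 for the broad genes (control and Al, SD, n = 3 each). Vamp2 alone made up most of the neuron-specific sum, with scaled means of 22.2 in controls and 24.9 with Al. The closeness of the neuron-specific sums therefore leans on Vamp2 and does not describe the other members.

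**Figure D1:**
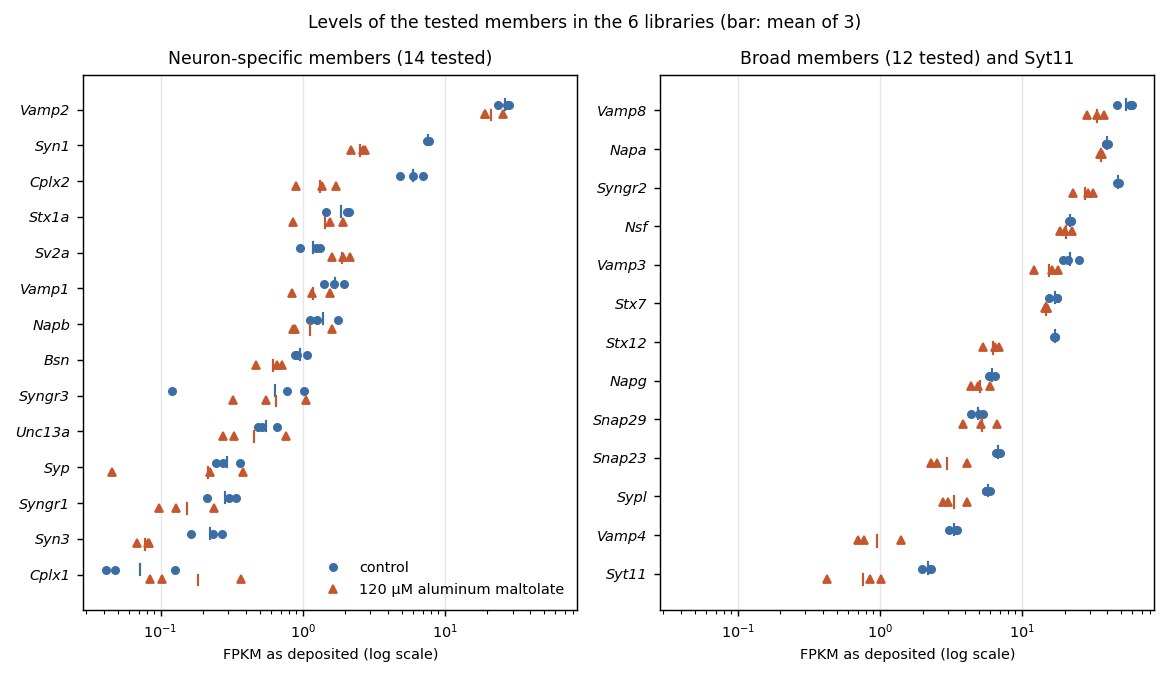
Deposited FPKM (log axis) of the 27 tested members in each library, with control libraries as circles, Al libraries as triangles and the mean of each 3 as a bar. In these deposited values 14 members, among them Syn1, Cplx2, Syt11, Stx12, Vamp4 and Snap23, have the Al libraries wholly to the left of the controls, and Sv2a alone has them to the right. All tested genes shift this way in deposited values, with a median log2 fold change of -0.43 and 42% called lower against 14% higher. The share of all genes without overlap in deposited values was not counted.

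Among the members that could be tested, 2 of 14 neuron-specific genes were called lower in the Al group and 1 was called higher, while 3 of 12 broad genes were called lower and 0 higher. Over all 12889 genes tested, 24.4% were called lower and 26.2% higher, against 14.3% and 7.14% of the neuron-specific and 25.0% and 0% of the broad genes, shares that rest on few genes each. Among the 7 neuron-specific genes with a mean of at least 1 FPKM, 28.6% were called lower and 14.3% higher, beside 26.2% and 25.8% of all genes at that level. The median log2 difference was 0.01 in the neuron-specific class, -0.12 in the broad class and 0.03 over everything tested. The neuron-specific median moved to 0.19 without Al replicate 1 and to -0.19 without Al replicate 3. Syt11, of the intermediate genes, was the only one of its 3 tested and was called lower. Those 14, 12 and 1 genes are not all members: 9 neuron-specific, 1 broad and 2 intermediate genes lay below 0.1 FPKM and were not tested. In bulk RNA, fewer cells with a transcript and less of it per cell cannot be told apart.

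Synapsins coat the vesicle surface and tether vesicles to actin in the reserve pool. Syn1 (chrX:20860511-20920918, GRCm38.p6) was at 7.60, 7.47 and 7.74 FPKM in the control replicates and at 2.65, 2.76 and 2.18 FPKM in the Al replicates. Every Al library lay below every control library. The log2 fold change on scaled values was -1.08 ± 0.164 (standard error, 3 against 3 libraries; limma adjusted P = 0.000559), which leaves 0.473 of the control level. Syn3 ran from 0.163 to 0.268 FPKM in the controls and from 0.0686 to 0.0825 FPKM in the Al group, also without overlap, yet its difference of -0.57 ± 0.341 did not pass (limma adjusted P = 0.175). It would be called lower with FPKM as deposited (-0.85), TPM (-1.02), quantile normalization (-0.89) or limma voom on the recovered reads (-0.98). Its counts were low, at 135 to 217 reads per control library and 27 to 41 per Al library. In addition, 14.1% of its exon bases in GENCODE on GRCm38 lie opposite exons of Timp3, an inhibitor of metalloproteinases that averaged 30.8 FPKM and was itself called lower (log2 fold change -1.28, limma adjusted P = 0.00205). The library kit keeps strand, but whether the counting used it is not given in the sources used here, so whether Timp3 reads entered the Syn3 value is not known. Syn2 had 0, 24 and 1 reads in controls and 0, 2 and 8 after Al, too few for a test.

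Complexins are small proteins that bind the assembled SNARE complex and both clamp and promote fusion. Cplx2 (chr13:54301964-54383923) had the largest decrease of all tested members. It stood at 5.99, 7.07 and 4.83 FPKM in the control replicates and fell to 0.9005, 1.70 and 1.38 FPKM with Al. The highest Al library thus stayed well under the lowest control. The log2 fold change was -1.65 ± 0.236 (limma adjusted P = 0.000407), or 0.320 of the control level, and it rested on 1236 to 1765 reads per control library and 138 to 214 per Al library. Its relative Cplx1 lay at the edge of detection, with 4 to 12 reads per control library and 6, 4 and 17 in the Al libraries, and its log2 fold change of 0.85 ± 0.454 was not called (limma adjusted P = 0.132). The fitted values of the pair lay on opposite sides of 0, but the difference between them was not tested.

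Proteins of the vesicle membrane gave the single increase. Sv2a (chr3:96181227-96195183) encodes a synaptic vesicle glycoprotein that is the binding site of the antiepileptic levetiracetam. Its values were 1.32, 0.963 and 1.24 FPKM in the control replicates and 1.93, 1.60 and 2.16 FPKM in the Al replicates. The groups did not overlap, in deposited or in scaled values. The log2 fold change was 1.10 ± 0.199 (limma adjusted P = 0.00141), a 2.15-fold increase that keeps its sign but is no longer called when every library is set to the same sum (0.37). Sv2b, by contrast, had 1 read in the 6 libraries together.

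The remaining vesicle membrane members span neuronal proteins and their widely used relatives. Syp encodes synaptophysin, the classic marker of synaptic vesicles. It was measured at 0.275, 0.362 and 0.244 FPKM in control cells and at 0.0453, 0.221 and 0.381 FPKM in Al cells, the lowest of these from 3 reads, so the groups overlapped (log2 fold change -0.16 ± 0.458, limma adjusted P = 0.781). Sypl, its broad relative, ran from 5.58 to 6.02 FPKM in the controls and from 2.77 to 4.13 FPKM with Al. After scaling, its difference was -0.32 ± 0.142 and met neither threshold (unadjusted P = 0.0505, limma adjusted P = 0.0762). Sypl would be called lower with FPKM as deposited (-0.80) or TPM (-1.09), whereas quantile normalization left it at -0.03. Syngr2, the broad synaptogyrin, was among the most abundant members at 46.9 to 48.3 FPKM in controls and 23.1 to 31.6 FPKM in Al libraries, and its scaled difference of -0.29 ± 0.162 was not called (limma adjusted P = 0.156), though it would be with FPKM as deposited (-0.77), TPM (-1.07) or quantile normalization (-0.60). For both genes the scaled Al values still lay wholly below the controls. The neuronal synaptogyrins were scarce. Syngr1 ranged from 0.0971 to 0.340 FPKM and Syngr3 from 0.121 to 1.05 FPKM over the 6 libraries, with fitted differences of -0.31 ± 0.342 and 0.58 ± 0.604 that did not pass. The control replicates of Syngr3 alone differed from 9 reads to 89.

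The calcium sensors of fast release were close to silent. Syt1, the main sensor for synchronous release, gave 17, 21 and 4 reads in controls and 0, 8 and 0 after Al. Syt4 and Syt5 had 4 and 2 reads in all 6 libraries together, none of them in the Al group. Syt7, a sensor for asynchronous release and lysosome exocytosis, ranged from 0 to 29 reads. Only Syt11 (chr3:88744699-88775159), a synaptotagmin that does not bind calcium and acts in endocytosis, passed the filter. Its level was 2.26, 1.99 and 2.30 FPKM in the controls and 0.860, 1.01 and 0.425 FPKM with Al. All 3 Al libraries were lower, and the third lay apart from the other two. The log2 fold change was -1.02 ± 0.326 (limma adjusted P = 0.0234) and became -0.62, still called, without Al replicate 3, while quantile normalization left it at -0.85 and no longer called.

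None of the 3 tested SNAREs of the neuronal type (Vamp1, Vamp2 and Stx1a) was called in either direction on scaled values. Of all tested genes, 24.4% were called lower and 26.2% higher, and 3 genes are few to set beside that. Snap25, the target-membrane SNARE of synapses, had 0 reads in all 6 libraries. Vamp2 was at 28.1, 27.3 and 23.8 FPKM in the control replicates and at 19.1, 19.1 and 25.6 FPKM in the Al replicates, which made it by far the most abundant neuron-specific member. On scaled values it differed by 0.17 ± 0.108 (limma adjusted P = 0.208), with overlapping groups. The sign turns with FPKM as deposited (-0.32) and with TPM (-0.62), and under TPM both Vamp2 and Vamp1 (-0.77) would be called lower. Vamp1, which serves spinal and neuromuscular synapses, ran from 1.40 to 1.96 FPKM in controls and from 0.841 to 1.56 FPKM with Al (log2 fold change -0.03 ± 0.259). Stx1a, the syntaxin of the presynaptic membrane, ran from 1.46 to 2.11 FPKM and from 0.860 to 1.91 FPKM (log2 fold change 0.06 ± 0.270). The standard errors of Vamp1 and Stx1a exceed their differences several times over.

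Among the broad SNAREs, 3 of 7 tested were called lower and 0 higher, beside 24.4% and 26.2% of all tested genes. Vamp4 (chr1:162570515-162599082) works in traffic between endosomes and the trans-Golgi network. It was at 3.06, 3.42 and 3.51 FPKM in control cells and 0.707, 0.774 and 1.41 FPKM in Al cells, a log2 fold change of -1.29 ± 0.223 (limma adjusted P = 0.00113). Stx12 (chr4:132854064-132884458), the recycling endosome syntaxin also called syntaxin 13, had replicates that lay close together. Its values were 17.1, 16.9 and 17.2 FPKM against 5.35, 6.51 and 6.88 FPKM, and the scaled level fell to 0.514 of control (log2 fold change -0.96 ± 0.107, limma adjusted P = 0.000106). Snap23 (chr2:120567655-120601255), the plasma membrane SNARE of non-neuronal cells, was at 6.65, 6.998 and 6.60 FPKM in the controls and at 2.55, 2.29 and 4.12 FPKM with Al. Its groups did not overlap, and the log2 fold change was -0.72 ± 0.174 (limma adjusted P = 0.00653). That call is lost with quantile normalization (-0.44) and without Al replicate 2 (-0.58).

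The other broad SNAREs were not called. Vamp8, which drives endosome and granule fusion, had the highest mean of all members over the 6 libraries, at 44.1 FPKM. It ran from 46.6 to 59.6 FPKM in controls and from 28.9 to 38.1 FPKM with Al. In the Al group Napa had the higher mean (36.0 against 33.6 FPKM). The scaled groups of Vamp8 overlapped (log2 fold change -0.21 ± 0.167, limma adjusted P = 0.296). It would be called lower with FPKM as deposited (-0.70) or TPM (-0.996). Vamp3, the recycling endosome VAMP, ran from 19.6 to 25.3 FPKM and from 12.2 to 17.9 FPKM and differed by -0.03 ± 0.143 after scaling. With TPM Vamp3 would be called lower (-0.81). Snap29, which acts in autophagosome fusion, and Stx7, a late endosome syntaxin, were both on the positive side. Snap29 had a log2 fold change of 0.54 ± 0.175 (limma adjusted P = 0.0243), just short of the fold threshold, and its value turns to -0.23 with libraries set to the same sum. Stx7 had 0.29 ± 0.105 (limma adjusted P = 0.0380) and turns to -0.19 with FPKM as deposited. Stxbp2, a syntaxin-binding protein of secretory blood and epithelial cells, had 0 to 8 reads per library.

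**Figure D2:**
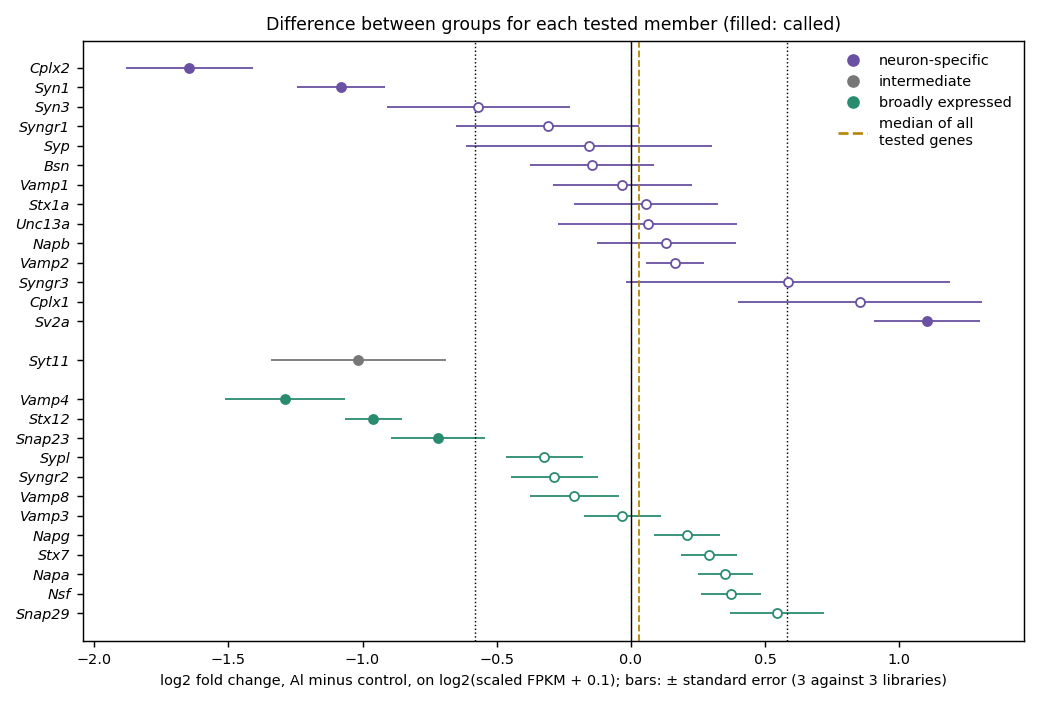
Log2 fold change (Al minus control) of the 27 tested members with standard errors, filled where called, dotted lines at the fold threshold and a dashed line at the median of all tested genes. Cplx2 at -1.65 and Sv2a at 1.10 are the ends of the range, and 18 of the 27 members lie between the dotted lines.

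The 4 genes that take SNARE complexes apart were all expressed, and 0 of them were called. Over all tested genes 24.4% were called lower and 26.2% higher, and 4 genes are few to set beside that. Nsf, the ATPase, was at 22.3, 21.4 and 22.4 FPKM in the control replicates and at 18.7, 22.4 and 20.2 FPKM in the Al replicates. Its adaptor Napa (alpha-SNAP) was at 39.2, 38.9 and 40.5 FPKM against 36.8, 35.9 and 35.3 FPKM. Deposited values were thus nearly level or slightly lower with Al, whereas scaled values were higher. On the scaled values Nsf differed by 0.37 ± 0.112 (limma adjusted P = 0.0173) and Napa by 0.35 ± 0.103 (limma adjusted P = 0.0160), both below the fold threshold, and both turn negative with FPKM as deposited (-0.11 and -0.14). Napg (gamma-SNAP) had 0.21 ± 0.124 and Napb, the brain form beta-SNAP, 0.13 ± 0.259, neither past the test. With the adjusted P alone and no fold threshold, 4 broad genes (Nsf, Napa, Snap29 and Stx7) would be called higher, where 32.2% of all tested genes are.

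The active zone and priming genes among the members were low or nearly absent. In a further list of 17 active zone genes, 6 had a mean of at least 1 FPKM. Bsn, the giant scaffold bassoon, was at 0.883 to 1.07 FPKM in the controls and 0.467 to 0.719 FPKM with Al, with a scaled difference of -0.15 ± 0.231 (limma adjusted P = 0.601). Unc13a, the main vesicle priming factor, was at 0.485 to 0.661 FPKM and 0.273 to 0.765 FPKM and differed by 0.06 ± 0.334. Its exons share 3.92% of their bases with the opposite strand gene Colgalt1, which averaged 50.6 FPKM and was called higher (log2 fold change 0.65, limma adjusted P = 0.00315). Unc13b, its more widely expressed relative, had 28 to 45 reads per control library and 6 to 18 per Al library and was not tested. Rims1, Rims2 and Pclo, the other active zone scaffolds among the members, had 2, 1 and 4 reads over all 6 libraries. In total 7 members had fewer than 10 reads in the whole experiment.

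Whether groups overlap gives a view that does not rest on the fold threshold. After scaling, the Al libraries lay wholly below the controls for 3 of 14 neuron-specific and 5 of 12 broad genes, and wholly above for 1 and 4, where 33.1% of all tested genes were wholly lower and 35.1% wholly higher. The difference between the classes was not tested, and the members share their libraries. The tested neuron-specific genes had as few as 3 reads in a library.

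A neuronal gene can also be set against its broad relative within a library, where the scaling between libraries enters only through the 0.1 added before logs are taken. Of 8 pairs, 6 had both genes at 0.1 FPKM or more. Vamp2 was at 144%, 130% and 93.9% of Vamp3 in the control replicates and at 157%, 118% and 143% in the Al replicates. Vamp1 was at 6.58% to 9.999% of Vamp3 in controls and 5.19% to 12.8% with Al, Syp at 4.33% to 6.48% and 1.50% to 9.23% of Sypl, and Napb at 2.76% to 4.55% and 2.38% to 4.58% of Napa. Syngr1 and Syngr3 stayed at or below 3.33% of Syngr2 in every library. The synaptobrevin pair was thus the only pair near parity.

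None of the 6 ratios separated the groups. The differences in the mean log2 ratio, Al minus control, were 0.20 ± 0.221 for Vamp2 over Vamp3, 0.03 ± 0.417 for Vamp1 over Vamp3, 0.33 ± 0.449 for Syp over Sypl, 0.15 ± 0.385 for Syngr1 over Syngr2, 0.96 ± 0.827 for Syngr3 over Syngr2 and -0.18 ± 0.352 for Napb over Napa (standard error). Exact two-sided permutation tests over the 6 libraries gave P between 0.4 and 0.9, all 0.9 after adjustment over the 6 pairs, in a design whose smallest possible P is 0.1. The signs for Vamp1, Syngr1 and Napb turn when a library is left out or, for the first 2, when the pseudocount is lowered or the values are scaled first. Scaling first also took the Syp ratio from 0.33 to 0.17. The other 3 ratios kept their sign but also rested on single libraries or the pseudocount. Without control replicate 1 the Syngr3 ratio differed by 0.24, without control replicate 3 the Vamp2 ratio by 0.017, and without Al replicate 3 the Syp ratio by 0.11, or by 0.0063 with a pseudocount of 0.01.

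**Figure D3:**
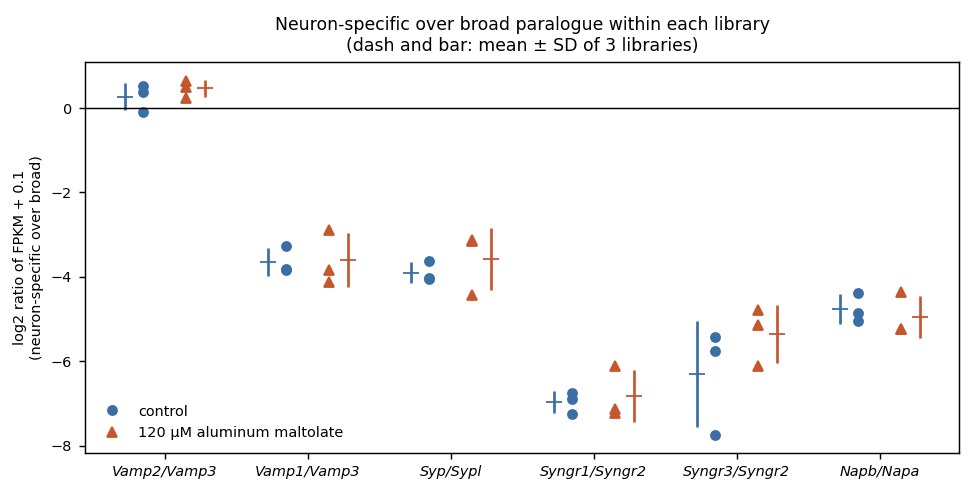
Log2 ratio of a neuron-specific gene to its broad paralogue in each library (FPKM + 0.1 in both), with control libraries as circles, Al libraries as triangles and the mean ± SD of 3 libraries beside them. In all 6 pairs the 2 groups overlap, and Vamp2 over Vamp3 is the only pair near 0.

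Beyond the members, 142 further genes of the same pathways were followed, of which 92 were tested, with 33 called lower, 20 higher and a median log2 fold change of -0.23, beside 24.4% lower, 26.2% higher and a median of 0.03 over all tested genes. Differences between these lists and that background were not tested. Other SNAREs had 9 of 23 lower and 6 higher (median -0.37), and syntaxin-binding (SM) proteins and SNARE regulators 5 of 11 lower and 2 higher (median -0.34). Active zone genes had 6 of 10 lower and 2 higher (median -0.81), vesicle membrane proteins and transporters 4 of 12 lower and 3 higher (median -0.43), and vesicle endocytosis genes 9 of 26 lower and 3 higher (median -0.14). The other synaptotagmins and C2-domain proteins had 0 of 10 lower and 4 higher (median 0.14), and 20 of their 30 genes were below the filter.

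By the rule set for naming, the largest decreases in these lists were in Rab3d, a GTPase of secretory granules, Scamp4, a carrier membrane protein, Stxbp4, a syntaxin-binding protein, and Snap47, a SNAP-25 relative of intracellular membranes. Rab3d went from 5.21 ± 0.963 to 0.296 ± 0.151 FPKM (SD, n = 3 each), or -3.39 on the log2 scale (limma adjusted P = 2.75e-05). Scamp4 fell by 2.13, Stxbp4 by 1.56 and Snap47 by 1.53 on the log2 scale. The largest increases were in Slc18a1, a vesicular monoamine transporter, Bet1l, a Golgi SNARE, Clta, a clathrin light chain, and Lin7c, a scaffold that binds CASK. Slc18a1 went from 0.310 ± 0.152 to 2.49 ± 0.335 FPKM (log2 fold change 3.14, limma adjusted P = 5.02e-05), and the other three differed by 1.85, 1.44 and 1.23.

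Scaling sets where 0 lies for all of these values. Leaving FPKM as deposited moved the median difference over the tested genes by -0.46 on the log2 scale, and setting libraries to the same sum (TPM) moved it by -0.75. Members called lower then numbered 10 and 14 in place of 6, and members called higher 1 and 0 in place of 1. Of all tested genes, 42% and 53.1% were then called lower and 14% and 9.31% higher. Measured from the median of all genes, Cplx2 stayed between -1.68 and -1.35, Syn1 between -1.13 and -0.79, and Sv2a between 1.07 and 1.36 over the 4 scalings, of which 3 only divide each library by a constant and so hardly move this distance.

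**Figure D4:**
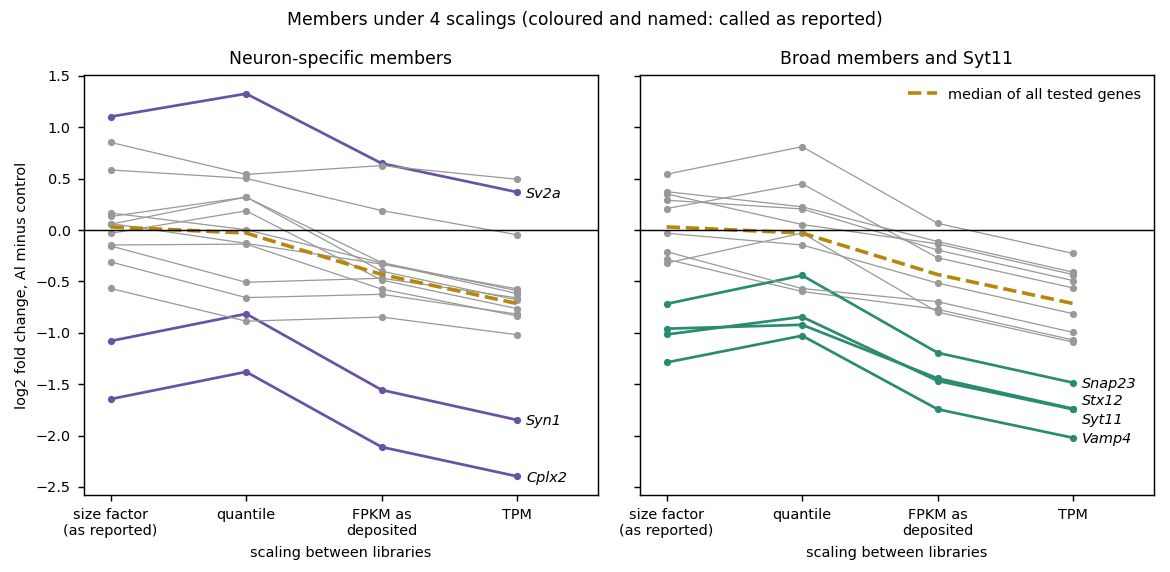
Log2 fold change (Al minus control) of each tested member under 4 scalings between libraries, with called members coloured and named, the others grey, and the median of all tested genes dashed. From size factors to FPKM as deposited and TPM the members move down with the dashed line, which goes from 0.03 to -0.72. From size factors to quantile normalization some rise, such as Cplx2 (-1.65 to -1.38) and Sv2a (1.10 to 1.33). Others fall, such as Syngr2 (-0.29 to -0.60) and Vamp8 (-0.21 to -0.57). In every scaling 24 of the 27 members stay on 1 side of the dashed line, among them Cplx2, Syn1 and Vamp4 below and Sv2a above.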

How the data were processed

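The authors deposited 1 FPKM value per gene symbol and library. Their paper names Trimmomatic, SortMeRNA and HISAT2 on GRCm38/mm10, whereas the submitters' processing notes name fastp, HISAT2, HTSeq and GRCm39, and which made the file is not given in the sources used here. RefSeq and GENCODE annotation on GRCm38 was matched by gene symbol only. The sample titles call the treated libraries M and give no treatment. They were taken as the Al group, and the sign of every difference rests on that. Whole reads were recovered from the FPKM steps for 99.92% of 17688 genes above 0 (tolerance 0.001 reads).

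Differences were tested with limma 3.58.1 (lmFit, eBayes with trend) in R 4.3.3 on log2(FPKM / size factor + 0.1), all 6 libraries, with Benjamini-Hochberg adjustment over 12889 genes. Fold changes on this scale understate those of low genes. Size factors were medians of ratios over 10337 genes above 0 in every library with a mean of at least 1 FPKM. The call thresholds are the study's. A log2 ratio of each pair, with 0.1 added to both genes, was compared by exact permutation (scipy 1.17.1). The procedure was tested on simulated data. Limma voom on the recovered reads stood in as the count test.

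The members, classes, pairs and lists were chosen with earlier results of these data known. All members are named. Of the other pathway genes, the rule names the 4 largest changes each way with an adjusted P under 0.05, a mean of at least 1 FPKM and no overlap. Alternatives covered scaling, pseudocount, filter, trend, replicate block, thresholds, thinning and each library left out, and scaling before the ratio was added later. The immunoprecipitated libraries were not analysed here.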

Additional observations from a re-analysis of the deposited data

How the results depend on the processing

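Of the 7 members called, 4 (Syn1, Cplx2, Vamp4 and Stx12) kept direction and call under every alternative run, and 0 of the 7 turned sign. Sv2a lost its call with TPM (0.37), Syt11 with quantile normalization (-0.85), and Snap23 with quantile normalization (-0.44) and without Al replicate 2 (-0.58). Syt11 fell to -0.62, still called, without Al replicate 3. Neuron-specific members called lower numbered 6 and higher 0 with TPM, and 3 were lower with limma voom on recovered reads, the added gene being Syn3, where 53.1% of all tested genes were lower and 9.31% higher with TPM and 24.3% lower with voom. Of the 20 uncalled members, 9 were called in at least 1 alternative at the same thresholds: Syn3, Sypl, Syngr2, Vamp1, Vamp2, Vamp3, Vamp8 and Bsn lower and Snap29 higher. Broad members called lower numbered 6 with FPKM as deposited, where 42% of all tested genes were lower, and 7 with TPM. Broad members called higher numbered 1 with quantile normalization, 4 with the adjusted P alone (Nsf, Napa, Snap29 and Stx7), and 0 to 1 with a library left out, the 1 being Snap29 without control replicate 3 or Al replicate 1. With FPKM as deposited and with TPM, the median was -0.44 and -0.67 in the neuron-specific class and -0.61 and -0.91 in the broad class. With no filter the broad median was -0.032, and with a library left out it ran from -0.21 to -0.037, and the neuron-specific median from -0.19 to 0.19. Over all genes, 25.0% of calls were higher with FPKM as deposited and 14.9% with TPM, in place of 51.8%.

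Signs of 13 uncalled members turned in at least 1 alternative. With FPKM as deposited and with TPM they became -0.32 and -0.62 for Vamp2, -0.40 and -0.68 for Stx1a, -0.19 and -0.49 for Stx7, -0.33 and -0.57 for Unc13a, -0.11 and -0.41 for Nsf, -0.14 and -0.43 for Napa, -0.32 and -0.59 for Napb, and -0.27 and -0.56 for Napg. With TPM alone, Syngr3 became -0.046 and Snap29 -0.23. With quantile normalization Vamp1 became 0.19 and Unc13a -0.13. Vamp1 was 0.0060 with limma voom and 0.037 with thinned reads. With a library left out, Syp ran from -0.51 to 0.34, Syngr3 from -0.11 to 1.01, Vamp1 from -0.27 to 0.16, Vamp3 from -0.12 to 0.094, Stx1a from -0.10 to 0.34, Unc13a from -0.25 to 0.29 and Napb from -0.07 to 0.29. The ratio of Vamp1 to Vamp3 then ran from -0.33 to 0.28, Syngr1 to Syngr2 from -0.21 to 0.35 and Napb to Napa from -0.47 to 0.0095. A pseudocount of 0.01 gave -0.0014 for the Vamp1 to Vamp3 ratio and -0.14 for the Syngr1 to Syngr2 ratio. Scaling before the ratio, an alternative chosen after seeing the data, gave -0.00070 and -0.025 for these and 0.17 for Syp to Sypl. The causes were not tested, beyond the shift of all genes with the scaling.

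Same-numbered libraries share only a number: their deviations correlated at -0.033, -0.026 and -0.073, and 0 of 3 control libraries correlated best with their own number. The fit with the replicate block gave 2 neuron-specific members lower and 1 higher, 3 broad lower and 0 higher, and medians of 0.01 and -0.12. The 12 members below the filter had at most 45 reads in any library, and no difference was tested for them.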
